A study of Mus musculus with 13 samples.

Results

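Matricellular proteins and small leucine-rich proteoglycans were followed as 10 genes, periostin (Postn), tenascin-C (Tnc), thrombospondins 1 and 4 (Thbs1, Thbs4), osteopontin (Spp1), fibronectin (Fn1), osteonectin (Sparc), biglycan (Bgn), decorin (Dcn) and lumican (Lum). The genes were taken by name, with earlier results of these data known, and all 10 were found among the 17924 genes of the deposited tables and passed the filter on low counts. RNA was sequenced from whole muscles of mdm mice, which carry a deletion in the titin gene and come from a B6C3Fe a/a-Ttn mdm/J colony. The 13 libraries came from extensor digitorum longus (EDL, a fast muscle of the lower leg, n = 5), psoas (a fast hip flexor, n = 5) and soleus (a slow calf muscle, n = 3). All groups share the mdm genotype, no treatment is named, and the mice were 29 to 42 days old. By muscle the ages were 38 or 42 days in EDL, 29 to 42 days in psoas and 33 to 38 days in soleus. Sex is given for 6 of the 13 libraries. In the RNA integrity numbers that the study lists, a measure of RNA quality, no psoas library stood above any EDL library. The part of RNA quality in the differences between muscles was not tested. Wild-type muscles are not analysed here, so each comparison sets one mdm muscle against another. The muscles were collected from animals euthanized for other experiments, and the study, wild-type muscles included, took its libraries from fewer mice than libraries, so that muscles of 1 mouse may enter more than 1 library.

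Matricellular proteins are secreted into the extracellular matrix but act mainly as signals and adaptors between matrix, growth factors and cell surface receptors rather than as load-bearing fibres. In muscle they are low at rest and are well known from injury, regeneration and fibrosis. Small leucine-rich proteoglycans bind collagen fibrils and shape their spacing and diameter, and decorin and biglycan also bind TGF-beta, the cytokine that drives much of matrix synthesis.

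Values are normalized counts, the reads on a gene divided by a size factor of the library, unless another scale is named. Folds and log2 differences of library pairs, and those within codes of the labels, come from log2 CPM. CPM are counts scaled to the library total, here with TMM normalization, so these folds differ slightly from ratios of normalized counts. The 13 libraries held between 9114176 and 48835209 counted reads. The members' counts ran from 26 reads (Spp1) to 53645 reads (Dcn) in a library, so that counting error weighed most on Spp1. Differences were tested with edgeR's quasi-likelihood test over 17069 genes with Benjamini-Hochberg adjustment, and a gene was called different where the adjusted p was under 0.01 and the level differed more than 2-fold, a log2 fold change past 1 or −1. A log2 fold change is given ± its standard error (SE). Numbered libraries of EDL and psoas behaved as pairs, so that a fit of these muscles with the replicate number as a block is given where it changed a call. Replicate 1 is no such pair by the labels, with mice of 38 days for EDL and 29 days for psoas.

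The promoters of Tnc and Bgn are shown because these were the members with an adjusted p under 0.05 between psoas and EDL, in opposite directions. RefSeq promoter sequences (GRCm38.p6) were matched for 6 of the 10 members, Postn, Tnc, Thbs4, Spp1, Sparc and Bgn. Each line gives the 250 bases before a RefSeq start site, 5′ to 3′ on the strand of the gene. Capitals mark a TATA box, read as the letters TATAAA, and a GC box, read as GGGCGG, both searched on the 2 strands, so that a GC box of the other strand appears as its complement. AP-1 sites (TGANTCA) and TEAD sites (read as the letters GGAATG) were searched in the same way and had no match here. Tnc lies on the reverse strand at chr4:64047016-64047265 and Bgn on the forward strand at chrX:73483351-73483600.
Tnc: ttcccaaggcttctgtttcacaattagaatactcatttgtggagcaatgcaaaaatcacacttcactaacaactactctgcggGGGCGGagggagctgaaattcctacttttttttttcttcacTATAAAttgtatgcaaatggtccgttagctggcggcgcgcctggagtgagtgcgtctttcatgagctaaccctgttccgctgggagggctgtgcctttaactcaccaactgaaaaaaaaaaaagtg
Bgn: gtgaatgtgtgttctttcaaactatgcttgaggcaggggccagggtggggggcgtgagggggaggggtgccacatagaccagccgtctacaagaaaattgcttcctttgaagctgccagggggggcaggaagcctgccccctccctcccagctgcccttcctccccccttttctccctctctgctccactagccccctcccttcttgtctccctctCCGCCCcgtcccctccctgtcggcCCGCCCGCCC
The Tnc window held 1 TATA box, 1 GC box and 3 E-boxes (CANNTG, left in lower case), with a GC content of 44.8%. The Bgn window held no TATA box, 3 GC boxes, of which the last pair overlap, and 1 E-box, with a GC content of 64.4%. Over 32817 promoter windows of this length, 12.4% held a TATA box, 32.7% a GC box, 66.2% an E-box, 6.75% an AP-1 site and 12.6% a TEAD site. RefSeq gives Tnc another start site, whose window at chr4:64046937-64047186 overlaps the one shown and held 1 TATA box, 1 GC box and 2 E-boxes, with a GC content of 51.2%. These matches describe letters in these windows and do not show binding.

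Tenascin-C and biglycan had the largest differences between psoas and EDL, in opposite directions, and tenascin-C, decorin and thrombospondin 4 had lower values in every soleus library than in any EDL library. In edgeR's test 0 of the 10 members were called between psoas and EDL, where 4.93% of all genes were, and 4 members reached an unadjusted p under 0.05 (33.3% of all genes) and 2 an adjusted one (18.1% of all genes). DESeq2's Wald test called 2 members, Tnc and Bgn (9.29% of all genes), and limma called 0 (5.79% of all genes). In a fit of EDL and psoas alone edgeR called 0 members (3.26% of all genes, 557 in place of 841), and with the replicate number as a block in that fit it called Tnc and Bgn among 1267 genes (7.42% of all genes). Between soleus and EDL 0 of 10 members were called (0.978% of all genes), 3 reached an unadjusted p under 0.05 (15.1%) and 0 an adjusted one (3.43%). There DESeq2 called Tnc (3.71% of all genes) and limma called 0 members (1.27%). Between soleus and psoas 0 of 10 members were called by edgeR (0.0762% of all genes), DESeq2 and limma, (1.0% and 0.117% of all genes in the latter). Thbs4 alone reached an unadjusted p under 0.05 there (12.7% of all genes), and no member an adjusted one (0.633%).

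**Figure D1:**
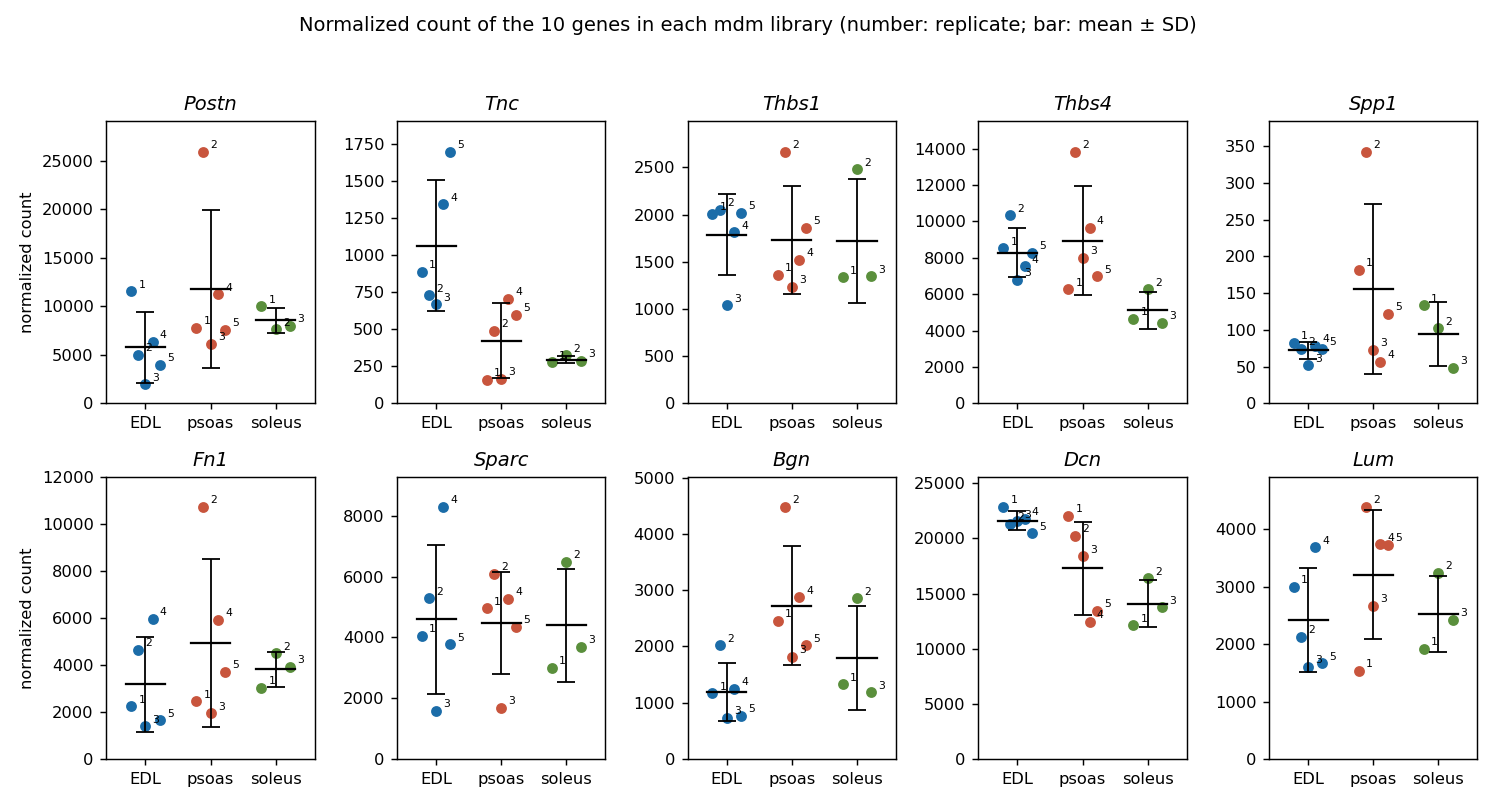
Normalized count (vertical axes, from 0, 1 scale per gene) of each of the 10 genes in 5 EDL, 5 psoas and 3 soleus libraries of mdm mice, each point a library numbered by its replicate, with the mean and SD in black. Tnc is high in EDL, Bgn high in psoas, and the 5 EDL values of Dcn lie close together between 20469 and 22841.

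Tenascin-C, an adhesion-modulating glycoprotein of tendon, developing tissue and wounds, was the member with the largest difference between muscles. Its normalized count in EDL replicates 1 to 5 was 887, 728, 667, 1341 and 1697. Psoas replicates 1 to 5 had 159, 490, 166, 705 and 598, and soleus replicates 1 to 3 had 277, 323 and 287. The soleus libraries all lay below every EDL library, while psoas overlapped EDL in 1 value, the 705 of replicate 4 against the 667 of EDL replicate 3. Against EDL, the log2 fold change of psoas was −1.33 ± 0.40 (SE; edgeR adjusted p = 0.0336), an EDL level 2.51 times that of psoas, and the adjusted p rose to 0.0915 in edgeR's fit without EDL replicate 5. With the replicate block Tnc was called, at −1.48 ± 0.266 (edgeR adjusted p = 0.00589), and in the pairs 2 to 5 alone it was not (edgeR adjusted p = 0.0113). Each of the 5 pairs was higher in EDL, by 5.48, 1.52, 4.02, 1.87 and 2.84 times for replicates 1 to 5, and Tnc, Fn1, Bgn and Dcn were the 4 of 10 members with 1 direction in all pairs, as were 36.2% of all genes.

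Soleus stood at −1.84 ± 0.491 from EDL for Tnc on the log2 scale (edgeR adjusted p = 0.0552), an EDL level 3.57 times that of soleus. Leaving out 1 library moved that adjusted p between 0.027 and 0.214, the highest without soleus replicate 1, and no such fit called it. The libraries' labels also carry codes T1 to T6 that they do not explain, and with these codes as a block Tnc was called, the 1 member of 10, at −1.97 (edgeR adjusted p = 0.00665, with 0.504% of all genes called). Code T1 holds only EDL replicate 1 and T3 only psoas replicate 1, so this block takes no difference between muscles from either library. Within single codes the difference was −1.30 in T4 (2 soleus libraries against 1 of EDL) and −2.37 in T6 (1 against 2). Soleus and psoas differed in Tnc by −0.51 ± 0.464 (edgeR adjusted p = 0.655). The 3 soleus libraries lay close together, with an SD of 24.1 against 251 in psoas.

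The summed level of tendon cell markers was, like the mean of Tnc, higher in EDL than in the other muscles. Of 8 such markers 6 were called lower in psoas than in EDL and 0 higher. For soleus against EDL edgeR called 0 of 8, DESeq2 called 2 lower and 4 had an unadjusted p under 0.05. Their summed normalized count was 7646 to 14304 in EDL, 825 to 2706 in psoas and 3870 to 6346 in soleus, 3 ranges that do not overlap, and no tendon marker was at 0 in any library. Between soleus and psoas the order differed, with the tendon sum higher in every soleus library and the mean of Tnc lower in soleus (296 against 424). Tnmd, a defining tendon gene, ran from 1559 to 2783 in EDL, from 79.2 to 489 in psoas and from 655 to 1032 in soleus. The tendon gene Scx overlapped between the muscles, with 57.4 to 371 in EDL, 98.9 to 195 in psoas and 113 to 272 in soleus. Comp, Cilp2, Chad and Mkx also overlapped between EDL and soleus, while Kera and Fmod did not. The part of tendon in the Tnc difference was not tested, and in these whole-muscle samples fewer cells of a type and less RNA per cell cannot be told apart.

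Biglycan, a proteoglycan of the pericellular matrix that binds collagen, TGF-beta and the dystrophin-associated complex, differed the other way. EDL replicates 1 to 5 had normalized counts of 1162, 2022, 729, 1247 and 770, and psoas replicates 1 to 5 had 2451, 4474, 1809, 2873 and 2022. Soleus replicates had 1323, 2857 and 1186. Psoas was the highest muscle by its mean, 2726 ± 1059 (SD, n = 5) against 1186 ± 521 (SD, n = 5) in EDL and 1789 ± 927 (SD, n = 3) in soleus, and the lowest psoas libraries overlapped EDL replicate 2. Psoas differed from EDL by 1.20 ± 0.347 on the log2 scale (edgeR adjusted p = 0.0285), a fold of 2.29. With the replicate block Bgn was called at 1.23 ± 0.149 (edgeR adjusted p = 0.00195), and also in pairs 2 to 5 alone (edgeR adjusted p = 0.00461), as the 1 member of 10, where 3.77% of all genes were called.

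The pairs were close to each other for Bgn. Psoas held 2.13, 2.16, 2.46, 2.34 and 2.62 times the EDL value in replicates 1 to 5. The SD of the 5 log2 differences was 0.126, and 1.4% of all tested genes had a smaller one. EDL replicate 2 and psoas replicate 2 were the highest library of their muscle, and EDL replicate 3 and psoas replicate 3 the lowest. Within codes T4, T5 and T6 the log2 difference was 1.11, 1.30 and 1.31. These values restate the same pairs, since T4 holds pair 2, T5 pair 3 and T6 pairs 4 and 5. Without psoas replicate 2 the unblocked log2 fold change fell to 0.95 (edgeR adjusted p = 0.0831), and without both EDL replicate 3 and psoas replicate 2 it was 0.81 (edgeR adjusted p = 0.181). Soleus lay between the other muscles, 0.60 ± 0.389 from EDL (edgeR adjusted p = 0.524) and −0.60 ± 0.403 from psoas (edgeR adjusted p = 0.553), and its libraries overlapped both. Without soleus replicate 2, the highest of the 3, these values were 0.085 (edgeR adjusted p = 0.98) and −1.12 (edgeR adjusted p = 0.34). Markers of mesothelial cells (5 of 6) and Schwann cells (3 of 6) were called higher in psoas than in EDL. Summed mesothelial counts were 41.8 to 121 in EDL, 259 to 1123 in psoas and 48.6 to 167 in soleus, with Bnc1 at 0 in all EDL libraries and Upk3b and Wt1 at 0 in most of them. Schwann cell counts were 1248 to 2490, 4101 to 29041 and 2597 to 6710 in the same order, with Sox10 at 0 in most EDL libraries. Their part in the Bgn difference was not tested.

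**Figure D2:**
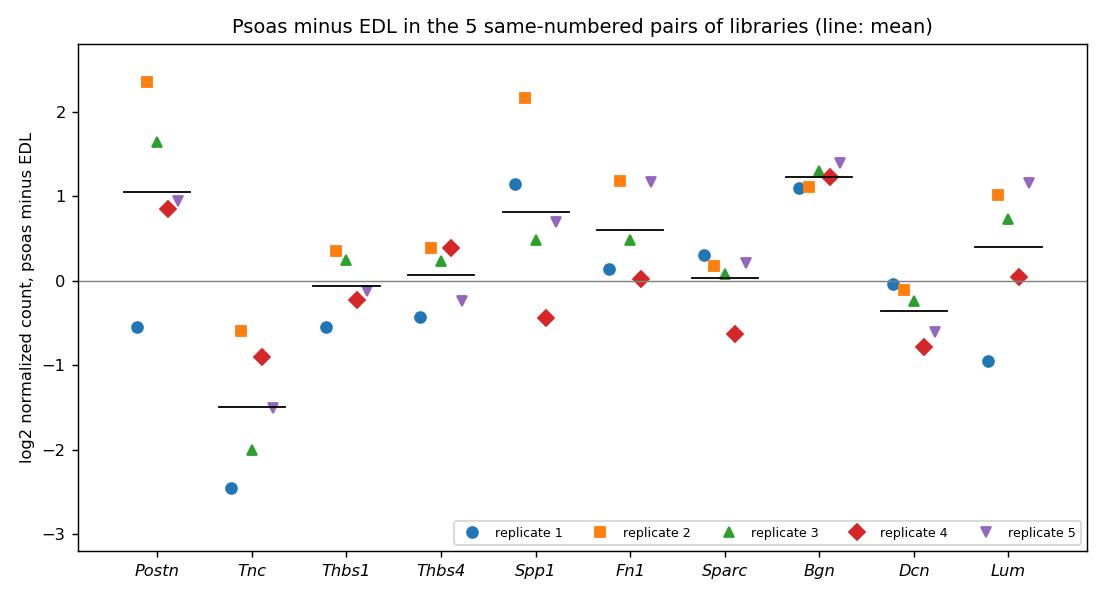
Log2 CPM (with TMM normalization, labelled log2 normalized count on the vertical axis) of psoas minus that of EDL in the 5 same-numbered pairs of libraries. Each symbol is a replicate number and the line the mean of a gene. The 5 points of Bgn lie together near 1.2, all 5 of Tnc lie below 0 and Postn runs from below 0 in replicate 1 to 2.35 in replicate 2.

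Decorin, which coats collagen fibrils and binds TGF-beta, was the most abundant member per length. EDL replicates 1 to 5 had 22841, 21316, 21555, 21783 and 20469 normalized counts. Psoas replicates had 22057, 20212, 18380, 12456 and 13410, and soleus replicates 12129, 16385 and 13755. All soleus libraries lay below all EDL libraries, and psoas held both a value inside the EDL range (replicate 1) and values near those of soleus (replicates 4 and 5). The EDL coefficient of variation (SD over mean) was 3.97%, and 0.0644% of all tested genes had a lower one, while the other members ran from 16.1% to 63.6% in EDL. The soleus log2 fold change against EDL was −0.61 ± 0.243 (edgeR adjusted p = 0.231) and that of psoas −0.32 ± 0.206 (edgeR adjusted p = 0.297), with lower psoas values in 5 of 5 pairs at 0.976, 0.927, 0.847, 0.582 and 0.654 times EDL. Within codes T4 (2 soleus libraries against 1 of EDL) and T6 (1 against 2) soleus stood at −0.61 and −0.60 from EDL.

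Lumican, a keratan sulphate proteoglycan of collagen fibrils whose gene lies beside Dcn on chromosome 10, did not show the Dcn pattern. Its EDL values were 1601 to 3684, its psoas values 1534 to 4388 and its soleus values 1915 to 3238, with full overlap. Against EDL, psoas stood at 0.41 ± 0.301 on the log2 scale (edgeR adjusted p = 0.363) and soleus at 0.08 ± 0.346 (edgeR adjusted p = 0.955). Pairs disagreed, from 0.517 in replicate 1 to 2.23 in replicate 5.

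Periostin, a fibroblast product that promotes collagen cross-linking and is a common sign of active fibrosis, had the widest range of values. EDL replicates 1 to 5 had 11566, 4985, 1965, 6346 and 3945 normalized counts. Psoas replicates had 7786, 25947, 6168, 11246 and 7589, and soleus replicates 10008, 7646 and 8023. The muscles overlapped, since EDL replicate 1 exceeded 4 of the 5 psoas libraries. On the log2 scale psoas stood at 1.03 ± 0.449 from EDL (edgeR adjusted p = 0.123). It was 0.52 (adjusted p = 0.412, edgeR) without psoas replicate 2 and 1.44 (adjusted p = 0.0347, edgeR) without EDL replicate 1. A block for the label code made Postn a called gene at 1.47 (edgeR adjusted p = 0.0073), beside Tnc and Bgn, 3 of 10 members where 6.48% of all genes were called. That block takes no difference from EDL replicate 1 or psoas replicate 1, each the only library of its code. Psoas exceeded EDL in 4 of 5 pairs, by 1.80 to 5.09 times, and replicate 1, whose libraries differ in age and code, was at 0.681.

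Thrombospondin 4, a pentameric protein of tendon, muscle and its attachment sites, had its lowest mean in soleus. EDL replicates 1 to 5 had 8526, 10342, 6785, 7524 and 8258 normalized counts, psoas replicates 6271, 13840, 7992, 9658 and 6987, and soleus replicates 4656, 6272 and 4421. Every soleus library lay below every EDL library, and the highest soleus library exceeded the lowest psoas library by less than 1 normalized count. The log2 fold change of soleus against EDL was −0.69 ± 0.278 (edgeR adjusted p = 0.238) and against psoas −0.80 ± 0.279 (edgeR adjusted p = 0.251). Psoas and EDL differed by 0.11 ± 0.235 (edgeR adjusted p = 0.783). Within codes the soleus difference from EDL was −0.95 in T4 and −0.82 in T6, and from psoas −1.34 and −0.89. Code T4 holds 2 soleus libraries against 1 of each other muscle, and T6 holds 1 against 2.

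Soleus and EDL thus did not overlap for 3 of the 10 members, Tnc, Thbs4 and Dcn, each lower in soleus, where 5.72% of all tested genes were lower without overlap and 11% were apart in either direction. For psoas against EDL and soleus against psoas 0 of 10 members were without overlap, where 13% and 10.2% of all genes were. Soleus replicates 1 to 3 came from mice of 33, 36 and 38 days, and EDL libraries from mice of 38 or 42 days. In code T4 both soleus mice were younger than the EDL mouse, and in T6 all were 38 days old. The part of age in these differences was not tested. Markers of adipocytes went the opposite way to Tnc, Thbs4 and Dcn, with 3 of 6 called higher in soleus than in EDL. Their sum was 9247 to 28615 in EDL, 14526 to 37607 in psoas and 53570 to 85137 in soleus, with no marker at 0. Tendon and muscle fibre markers had lower sums in soleus. Tendon sums were 3870 to 6346 against 7646 to 14304 in EDL (0 of 8 called, 4 with an unadjusted p under 0.05, DESeq2 2 lower). Fibre sums were 891900 to 1288300 against 1666700 to 3433700, with 4 of 10 called lower, Tnnc2, Tnni2, Myh1 and Myh4. Of the 10 fibre markers 2 had a positive log2 fold change. The slow myosin Myh7 ran from 98825 to 182500 in soleus against 700 to 11097 in EDL, so the fibre sum mixes fibre types. The part of these cells in the differences of Tnc, Thbs4 and Dcn was not tested.

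Thrombospondin 1, which activates latent TGF-beta and binds CD47 and CD36, and osteonectin, which binds collagen and aids its assembly, had nearly equal means in the 3 muscles. Thbs1 averaged 1787 ± 428 in EDL (SD, n = 5), 1729 ± 575 in psoas (SD, n = 5) and 1722 ± 657 in soleus (SD, n = 3). Sparc averaged 4597 ± 2462, 4474 ± 1685 and 4396 ± 1851 in the same order. The libraries of each muscle spread far wider than these means, from 1577 to 8295 for Sparc in EDL alone. The log2 fold changes of psoas against EDL were −0.05 ± 0.266 for Thbs1 (edgeR adjusted p = 0.919) and −0.04 ± 0.401 for Sparc (edgeR adjusted p = 0.96), and both signs turned under other settings, so that no direction is given.

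Fibronectin, the adhesive scaffold of provisional matrix, ranged from 1386 to 5979 normalized counts in EDL, from 1939 to 10734 in psoas and from 3032 to 4501 in soleus. Psoas exceeded EDL in 5 of 5 pairs, by 1.10, 2.26, 1.39, 1.01 and 2.24 times, and the log2 fold change was 0.64 ± 0.479 (edgeR adjusted p = 0.379). Leaving out 1 library moved it between 0.14, without psoas replicate 2, and 0.98, without EDL replicate 4. An antisense gene, Apol7d, shares 292 exon bases with Fn1 and was counted at no more than 58 reads, at most 0.491% of the Fn1 count. Exons of Tnc, Thbs1 and Spp1 also overlap annotated genes, by 176, 208 and 309 bases, and the strand setting of the counting is not given in the sources used here.

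Osteopontin, a secreted phosphoprotein of macrophages and injured muscle, was the member with the fewest reads. EDL replicates 1 to 5 had 82.2, 74.0, 51.8, 78.4 and 74.4 normalized counts. Psoas replicates had 182, 343, 73.3, 56.5 and 122, and soleus replicates 134, 102 and 48.1. Psoas spread from below most of the EDL libraries to more than 4 times their mean, and no muscle was apart from another. In edgeR's fit psoas stood at 1.10 ± 0.425 from EDL on the log2 scale (edgeR adjusted p = 0.085), and 0.60 without psoas replicate 2. Macrophage markers (edgeR called 0 of 10 in any comparison, DESeq2 1 between psoas and EDL, where 1 had an unadjusted p under 0.05) summed to 5091 to 17648 in EDL, 4727 to 18346 in psoas and 5968 to 10722 in soleus, with no marker at 0, and the highest library was psoas replicate 2.

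**Figure D3:**
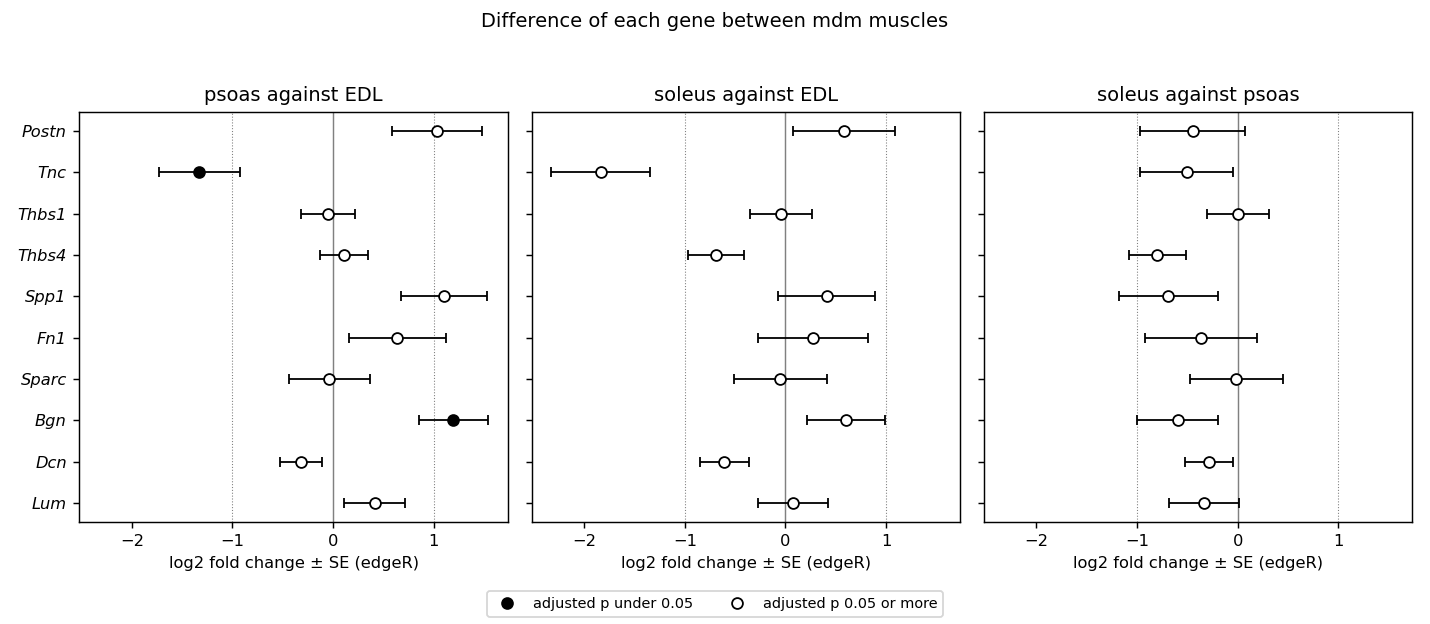
Log2 fold change ± SE from edgeR (horizontal axis) of the 10 genes in the 3 comparisons of mdm muscles, filled where the adjusted p is under 0.05 and with dotted lines at the fold limit. Tnc (−1.33) and Bgn (1.20) are filled in psoas against EDL, and 0 genes are filled in the other 2 comparisons.

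Over all 10 members the median log2 fold change was 0.26 for psoas against EDL, where the median over all tested genes was 0.02, and 0.02 for soleus against EDL, where it was −0.03. Without psoas replicate 2 the first fell to 0.02, with 5 of 10 members above 0, and without both that library and EDL replicate 3 it was −0.10. Without soleus replicate 2 the median for soleus against EDL was −0.27. For soleus against psoas it was −0.41, with 9 of 10 members below 0, against −0.03 over all genes. Without psoas replicate 2 this median was −0.19, with 6 of 10 members below 0.

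Compared per kilobase of exon, Dcn was highest in all 3 muscles, at 3698 ± 147 normalized counts per kb in EDL (SD, n = 5), 2964 ± 721 in psoas (SD, n = 5) and 2414 ± 368 in soleus (SD, n = 3). Thbs4 came next, at 2520 ± 405, 2721 ± 917 and 1556 ± 306. Its libraries lay below those of Dcn in EDL and soleus and overlapped them in psoas. Sparc, Lum and Postn followed in EDL at 1214, 988 and 662, Postn, Lum and Sparc in psoas at 1350, 1312 and 1181, and Sparc, Lum and Postn in soleus at 1160, 1032 and 984, with overlap between neighbours in each order. Thbs1, Fn1 and Bgn lay between 195 and 447 per kb in every muscle. Tnc and Spp1 were lowest, with Tnc above Spp1 without overlap in EDL (137 against 43.8) and the reverse order, with overlap, in psoas (54.5 against 94.2) and soleus (38.0 against 57.4). With the length of the longest coding transcript in place of all exons Dcn stayed first, and Postn came second in psoas and soleus.

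Single libraries stood apart in most members at once. EDL replicate 3 was the lowest EDL library for 9 of the 10 members, the exception being Dcn, and psoas replicate 2 the highest psoas library for 8, the exceptions being Tnc and Dcn. Soleus replicate 2 was the highest soleus library for 8 members. Psoas replicate 3 was the lowest psoas library for 5 members. Both EDL and psoas replicate 3 carry an age of 42 days, code T5 and a female label, so these traits cannot be told apart. The study trimmed EDL replicate 3 for base quality and kept a smaller share of its reads than in any other mdm library. Psoas replicate 3 was not trimmed, and the part of trimming was not tested. Together the members took 0.156% of the normalized counts in EDL replicate 3 and 0.708% in psoas replicate 2, and 0.228% to 0.377% in the other 11 libraries. Dcn made up 57.7% of the members' counts in EDL replicate 3 and 22.7% in psoas replicate 2. EDL replicate 3 also had the lowest summed level of 10 fibroblast markers (30573) and the highest of 10 muscle fibre markers (3433700). Psoas replicate 2 had the lowest fibre sum of its muscle (958420), while its fibroblast sum (41954) lay inside the range of the other psoas libraries, 30914 to 44104. The part of these cells in the members' values was not tested.

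**Figure D4:**
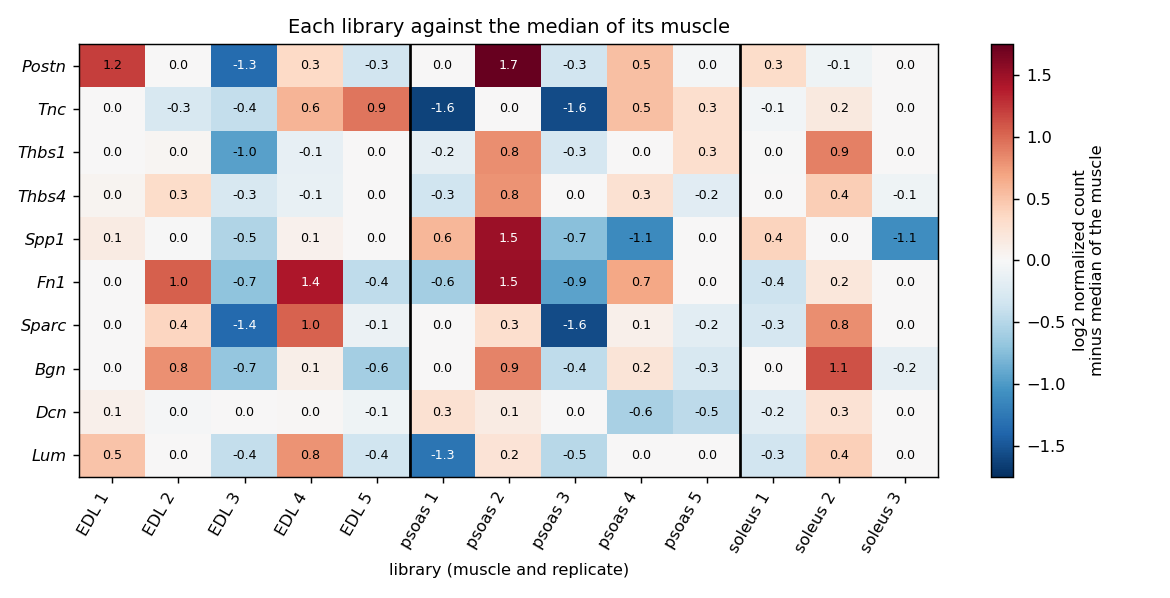
Log2 normalized count of each gene in each library minus the median of its muscle (colour and printed value), with libraries by muscle and replicate along the horizontal axis. EDL replicate 3 is below or at the median in all 10 genes, psoas replicate 2 at or above it in all 10, and Dcn stays close to 0 across the EDL libraries.

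After the muscle means were removed, the members' log2 CPM (counts scaled to the library total) correlated best for Fn1 with Sparc (Pearson r = 0.795), Thbs4 with Bgn (0.792) and Fn1 with Bgn (0.770) over the 13 libraries, while Tnc with Dcn gave −0.624. With the other members Dcn ran from −0.624 to 0.492. These values describe libraries that share label codes and may share mice, and a few libraries weigh heavily in them. Among all tested genes, those closest to a member over the 13 libraries were Stat2 (0.943) for Postn, Ldha (0.933) and Gm6283 (0.922) for Tnc, and Man2a1 (0.963) and Nid1 (0.959) for Bgn. For Fn1 they were Pros1 (0.954) and Naip2 (0.946), for Lum Prcp (0.930) and Gm15931 (0.909), for Spp1 Tmem221 (0.925) and Gpm6b (0.895), and for Sparc Sgms2 (0.911) and Nat14 (0.904). Thbs1 was closest to Col12a1 (0.876) and Col16a1 (0.875), Thbs4 to Tbc1d9 (0.850) and Chil1 (0.838), and Dcn to Prdm11 (0.838) and Fam180a (0.830). All are Pearson r of log2 CPM without removal of the muscle means.

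Genes related to the members were taken from 10 lists, with 115 genes tested. Between psoas and EDL 16 of them were called, 10 higher and 6 lower in psoas (13.9%, with 4.93% over all genes). The replicate block called 28 (7.42% over all genes). Between soleus and EDL edgeR called 0 of them, DESeq2 7 and the replicate block 2, and 26 had an unadjusted p under 0.05. Over all genes these shares were 0.978%, 3.71%, 0.961% and 15.1%. Between soleus and psoas the counts were 0, 3, 0 and 22, with 0.0762%, 1.0%, 0.00586% and 12.7% over all genes. Among 11 other small leucine-rich proteoglycans, 3 were lower and 1 was higher in psoas, with a list median log2 fold change of −0.46 against 0.02 over all genes. Kera (keratocan) stood at −3.74 (edgeR adjusted p = 0.000874), with 1732 ± 514 normalized counts in EDL (SD, n = 5) and 130 ± 94.6 in psoas (SD, n = 5). Fmod (fibromodulin), which sets collagen fibril diameter in tendon, stood at −2.42 (edgeR adjusted p = 0.00159) and Epyc (epiphycan), a cartilage proteoglycan, at −2.57 (edgeR adjusted p = 0.00831). Epyc had few reads, from 1 to 81 in a library, with mean normalized counts of 55.4 in EDL and 9.02 in psoas. Podn (podocan), named after its values were seen, rose in psoas by 1.70 (edgeR adjusted p = 0.0084). Kera and Fmod are also on the tendon marker list.

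The relatives of the matricellular members split by gene. Comp, the tendon and cartilage thrombospondin, was the 1 of 5 other thrombospondin and tenascin family genes called, at −2.22 (edgeR adjusted p = 0.00355), and it is also a tendon marker. Ccn5 was the 1 of 5 CCN genes called, at −2.59 (edgeR adjusted p = 0.000654), and Col11a1 the 1 of 8 fibrillar collagen genes, at −1.98 (edgeR adjusted p = 0.00301). Of 6 genes of the SPARC family 0 were called by edgeR in any comparison, DESeq2 called 1 between psoas and EDL, where 2 had an unadjusted p under 0.05, and Smoc1 came closest, at 2.13 for soleus against EDL (edgeR adjusted p = 0.0116). DESeq2 called Smoc1 there, as did edgeR with the replicate number as a block, at 2.42 (adjusted p = 0.00563), though soleus numbers did not pair with those of EDL. Of 18 glycosaminoglycan chain enzymes 0 were called by edgeR, DESeq2 called 2 between psoas and EDL, where 4 had an unadjusted p under 0.05, and Chst11, named after its values were seen, was called with the replicate block (1.13 without it, edgeR adjusted p = 0.0154). Csgalnact2 stood at −0.84 (edgeR adjusted p = 0.00386), under the fold limit.

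Higher in psoas were Fbln7 (1.55) and Mfap4 (1.40) among 13 fibulin and elastic fibre genes, all 13 of which had a positive log2 fold change, and Hspg2 (perlecan, 1.52) and Agrn (agrin, 1.08) among 9 genes of large proteoglycans and hyaluronan. So were 3 of 22 receptors, the collagen receptor Ddr1 (1.57), the endocytic receptor Lrp1 (1.47) and Megf10 (1.18), and 2 of 18 TGF-beta genes, Ltbp2 (1.40) and Ltbp3 (1.26), which bind TGF-beta or the microfibrils that store it. Edge cases were common, since leaving out 1 library lost the call in at least 1 of 13 fits for Lrp1, Ltbp3, Fbln7, Mfap4, Agrn, Megf10, Ltbp2, Epyc and Podn. The highest adjusted p of such fits was 0.0113 for Lrp1 (without EDL replicate 5), 0.012 for Ltbp3 and 0.0241 for Agrn (both without psoas replicate 2). It was 0.0181 for Fbln7, 0.0166 for Mfap4, 0.0247 for Megf10, 0.0234 for Ltbp2 and 0.0256 for Podn without EDL replicate 3, and 0.0223 for Epyc without EDL replicate 5. The calls of Kera, Fmod, Comp, Ccn5, Col11a1, Hspg2 and Ddr1 held in all 13 fits.

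**Figure D5:**
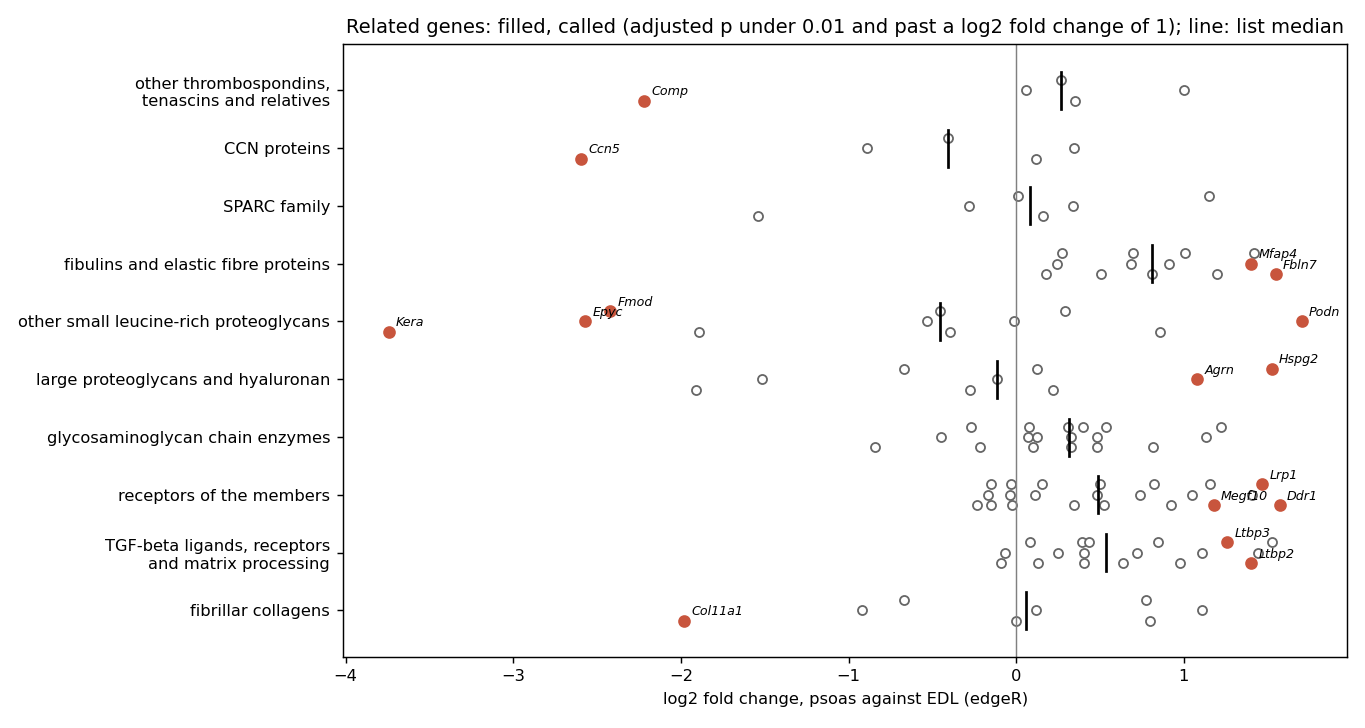
Log2 fold change of psoas against EDL from edgeR (horizontal axis) for the tested genes of 10 lists of related genes, each point a gene, with called genes filled and named and a line at each list median. Kera, Ccn5, Epyc, Fmod, Comp and Col11a1 lie on the EDL side and 10 called genes lie on the psoas side.

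Markers of other cells, beside the tendon, mesothelial and Schwann cell lists above, gave these counts between psoas and EDL, higher and lower in psoas. Muscle fibre markers had 0 and 3 of 10 (Ckm, Tnni2 and Myh4). Their sums were 1666700 to 3433700 in EDL, 958420 to 1875400 in psoas and 891900 to 1288300 in soleus. Regenerating fibre markers had 3 and 0 of 8, cartilage markers 0 and 2 of 4, pericyte or smooth muscle markers 1 and 0 of 7, and other leukocyte markers 1 and 0 of 6. In soleus against EDL 4 of 10 muscle fibre, 1 of 8 regenerating fibre and 1 of 4 cartilage markers were lower and 1 of 6 mesothelial markers was higher, and in soleus against psoas Myh8, a regenerating fibre marker, was lower. Of 10 fibroblast, 6 endothelial, 6 adipocyte and 5 red blood cell markers edgeR called 0 between psoas and EDL, where 4, 1, 1 and 5 had an unadjusted p under 0.05 and DESeq2 called 0, 0, 0 and 3. The fibroblast sums were 30573 to 49372 in EDL, 30914 to 44104 in psoas and 42226 to 64245 in soleus.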

How the data were processed

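RNA of 13 mdm muscle libraries was prepared with a stranded total RNA kit and sequenced as paired-end reads. The authors trimmed libraries of low base quality with Trimmomatic 0.32, aligned reads to GRCm38 with TopHat 2.1.1, counted reads per gene with GenomicAlignments, and deposited these whole-number counts. Beside them the authors deposited a normalized signal, the count divided by a DESeq2 size factor, which is called the normalized count. How overlapping genes and read strand were treated in the counting is not given in the sources used here. Groups follow the labels. No library was a duplicate, with a chi-square per degree of freedom of 53.09 or more in the 23 pairs of libraries of 1 muscle. Where nothing in the labels says that libraries came from separate mice, p-values measure only the spread between them. The reads carry no molecular identifiers, so counting precision covers counting error only.

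The test covered 17069 of 17924 genes, those that reached a normalized count of 10 in 3 or more libraries, with edgeR 4.0.16 in R 4.3.3, with TMM normalization and muscle as the only factor in 1 fit of all libraries. SEs are log2 fold changes over the root of F. The study also fitted the sequencing run, which the labels do not name, so the label code was tried as an alternative. Other alternatives were DESeq2 1.42.0, limma 3.58.1 on log2(normalized count + 1), DESeq2 size factors, no filter, 2 muscles only, a replicate block and leaving out libraries. The code was tested on simulated data. Symbols and exon lengths came from GENCODE mouse release M21 (17833 genes). Log2 CPM had a prior count of 2. Figures were drawn with matplotlib 3.10.9.

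Deviations of same-numbered EDL and psoas libraries from their muscle means correlated by 0.407, 0.370, 0.316, 0.289 and 0.371 for replicates 1 to 5, all over 0.1, so these were taken as pairs. Differently numbered EDL and psoas libraries ran from −0.441 to 0.237, some of them also over 0.1 but each below every same-numbered value. The labels differ for replicate 1, and replicates 2 to 5 share age and code. The members, the related and marker gene lists and the tests were chosen with earlier results of these data known. All members were named, and from each list the called genes, at most the 3 with the largest change per comparison, or else the gene with the lowest adjusted p, and for each member the 2 genes with the highest Pearson r, of which 1 is not reported here.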

Additional observations from a re-analysis of the deposited data

Results flagged for a closer look

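Of 20 sets of 5 libraries (each gene in EDL and in psoas), 3 held a library far from the rest by Dixon's criterion at 95% (a gap over range above 0.710), and chance alone gives about 1 in 20 such sets. Postn was high in psoas replicate 2, at 25947 normalized counts, with a gap over range of 0.743 to the nearest library at 11246. Thbs1 was low in EDL replicate 3, at 1039 normalized counts, with a gap over range of 0.766 to the nearest at 1814. Spp1 was low in the same library, at 51.8 normalized counts, with a gap over range of 0.731 to the nearest at 74.0. These are the same libraries that were highest or lowest for most of the 10 genes, and the cause was not tested.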

How the results depend on the processing

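Counts of calls moved with the test, the threshold, the block and the libraries. DESeq2 called 1586 genes for psoas against EDL, 633 for soleus against EDL and 171 for soleus against psoas, with 2, 1 and 0 members. Adjusted p under 0.05 without a fold limit gave 3093 (2 members), 585 and 108 genes (0 members each). Fits of 2 muscles gave 557 genes for psoas against EDL and 8 for soleus against psoas, and limma 20 for the latter. The replicate block, also in fits of 2 muscles, gave 1267 genes with 2 members for psoas against EDL (in replicates 2 to 5, 1 member) and 1 gene for soleus against psoas, and it changed the call of no other member. The label code block gave 3 members for psoas against EDL, 86 genes and 1 member for soleus against EDL and 6 genes for soleus against psoas. Without EDL replicate 3 and psoas replicate 2, an alternative chosen after seeing the data, 107, 46 and 6 genes and 0 members were called. Leaving out 1 library gave 317 to 802, 19 to 182 and 3 to 21 genes, and 0 members in each. The lowest counts came without EDL replicate 3, without soleus replicate 1, and without soleus replicate 1 or 2.

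Log2 fold changes that turned sign were close to 0 in most cases, and none was called on either side. For psoas against EDL, Thbs1 was 0.061 in replicates 2 to 5 with the block and 0.059 with the label code block, Sparc 0.028 with limma and 0.039 with the replicate block, and Thbs4 −0.16 and Fn1 −0.045 without both libraries. For soleus against EDL, Thbs1 was 0.017 and Sparc 0.36 with the replicate block, Sparc 0.047 with limma, Spp1 −0.27 and Fn1 −0.25 with the label code block, and Lum −0.038 without both libraries. For soleus against psoas, Thbs1 was −0.005 with DESeq2 size factors and the DESeq2 test, −0.013 with limma, −0.008 in the fit of 2 muscles, −0.045 with the replicate block and −0.38 with the label code block. Tnc was 0.29 and Sparc 0.12 with the replicate block, and Sparc 0.019 with limma. Without both libraries Postn was 0.068, Fn1 0.13 and Sparc 0.12.

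With 1 library left out, psoas against EDL ran from −0.26 to 0.06 for Thbs1, −0.10 to 0.22 for Thbs4 and −0.25 to 0.28 for Sparc. Soleus against EDL ran from −0.41 to 0.11 for Thbs1, −0.45 to 0.26 for Sparc and −0.14 to 0.27 for Lum. Soleus against psoas ran from −0.62 to 0.069 for Postn, −0.37 to 0.21 for Thbs1, −0.58 to 0.13 for Fn1 and −0.42 to 0.20 for Sparc.

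The soleus numbers did not pair with the others, with correlations of 0.115, 0.421 and −0.162 with EDL and 0.159, 0.141 and −0.302 with psoas. The SD over the mean of a member reached 74.5% within a muscle (Spp1 in psoas, the member with the fewest reads), and the 3 soleus libraries limit what the comparisons with soleus can show.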
